A study of Mus musculus with 8 samples.

Results

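Cathepsins and legumain are the proteases of the lysosome, and the 10 genes described here (Ctsa, Ctsb, Ctsc, Ctsd, Ctsh, Ctsk, Ctsl, Ctss, Ctsz and Lgmn) were taken by symbol from a table of 54532 mouse genes as lysosomal proteases able to cut the linkers of antibody-drug conjugates. Expression of these 10 genes was measured by bulk RNA-seq in tumors of 4T1-FLuc, a mouse triple-negative mammary carcinoma line that carries firefly luciferase and was grown under the skin of immunocompetent female BALB/cJ mice injected at 6 weeks of age. Tumors came from 4 mice given saline, whose samples are labelled both as a saline group and as a PBS control, and from 4 mice given mAb-DXd/IMQ. This conjugate is an antibody to CD276 that carries DXd, a topoisomerase I inhibitor, and IMQ, an imidazoquinoline agonist of Toll-like receptors, and 5 courses of 16 mg/kg were given into a vein, 4 days apart. The comparison asks whether transcripts of linker-cutting proteases differed between tumors that had received the conjugate and tumors that had not. The study reported that treated tumors were on average much smaller than saline tumors at the end, with extensive cell death in stained sections. Tumor size and treatment therefore cannot be told apart in any difference below.

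Cathepsins B, C, H, K, L, S and Z are cysteine proteases of the papain family, cathepsin D is an aspartic protease, cathepsin A is a serine carboxypeptidase, and legumain is a cysteine protease of another family that cuts after asparagine. They are made as inactive precursors, carried to endosomes and lysosomes and activated there at acid pH, where they degrade proteins taken up from outside the cell or delivered by autophagy. The DXd of this conjugate is held by a glycine-glycine-phenylalanine-glycine peptide, which lysosomal cathepsins can cut after the antibody is internalized. In tumors these enzymes are made by carcinoma cells, fibroblasts and, abundantly, macrophages. In bulk tissue, fewer cells of a type and less RNA per cell cannot be told apart.

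All 10 genes were read deeply. Saline libraries held 45019927 to 69582375 counts and treated libraries 34591912 to 51625237, and the lowest count of any of the 10 genes in any tumor was 1558, for Ctsk. All 10 passed the filter on low counts, which kept 18511 genes. Levels are given as CPM, counts scaled to TMM-normalized library sizes. The 10 genes together had means of 5001 and 5023 CPM for saline and treated tumors, with SDs of 965 and 583 CPM (n = 4 each).

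The tissue was checked by its markers. The epithelial markers Epcam, Krt8, Krt18, Krt19 and Cdh1 summed to 2336, 1682, 2259.5 and 2045 CPM in saline tumors 1 to 4 and 3062, 2409.5, 1883 and 1906 CPM in mAb-DXd/IMQ tumors 1 to 4. Epithelial transcripts were thus present in every tumor and lowest in saline tumor 2. No marker of the 4T1 cells alone was measured, so carcinoma and other epithelium are not told apart here. Krt18 was the most abundant per length, with a log2 fold change of 0.17, and Epcam had the lowest p (log2 fold change 0.44 with SE 0.30, edgeR FDR 0.461). The Epcam log2 fold change was 0.22 without saline tumor 2 and 0.24 without mAb-DXd/IMQ tumor 1. None of these 5 passed by edgeR, DESeq2 or limma-voom, and none had an unadjusted p under 0.05.

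None of the 10 proteases passed both thresholds of edgeR's quasi-likelihood test, a Benjamini-Hochberg FDR under 0.05 over all tested genes and an absolute log2 fold change above 0.58. Among all tested genes, 197 of 18511 passed, 1.06% of them, with 101 higher in mAb-DXd/IMQ tumors (0.546%) and 96 lower (0.519%). The number of genes past both thresholds was 203, 111, 10 and 11 without saline tumors 1 to 4 in turn, and 190, 76, 88 and 12 without mAb-DXd/IMQ tumors 1 to 4. At an unadjusted p under 0.05 the count was 1 of 10, Ctsk, against 18.9% of all tested genes, and DESeq2 and limma-voom each passed 0 of 10. The groups overlapped for all 10 proteases, whereas they did not overlap for 13.1% of all tested genes. The log2 fold change was above 0 for 5 proteases and below 0 for 5, with a median of -0.016, and the median over all tested genes was 0.022. This split was not stable. Without saline tumor 2 there were 8 proteases above 0 (median 0.10), and with a correction for gene length 3 (median -0.074). The median of the 10 was -0.12 without mAb-DXd/IMQ tumor 1. A count of 0 with 4 tumors a group does not show equal levels, so the 95% interval of each difference is given below.

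**Figure D1:**
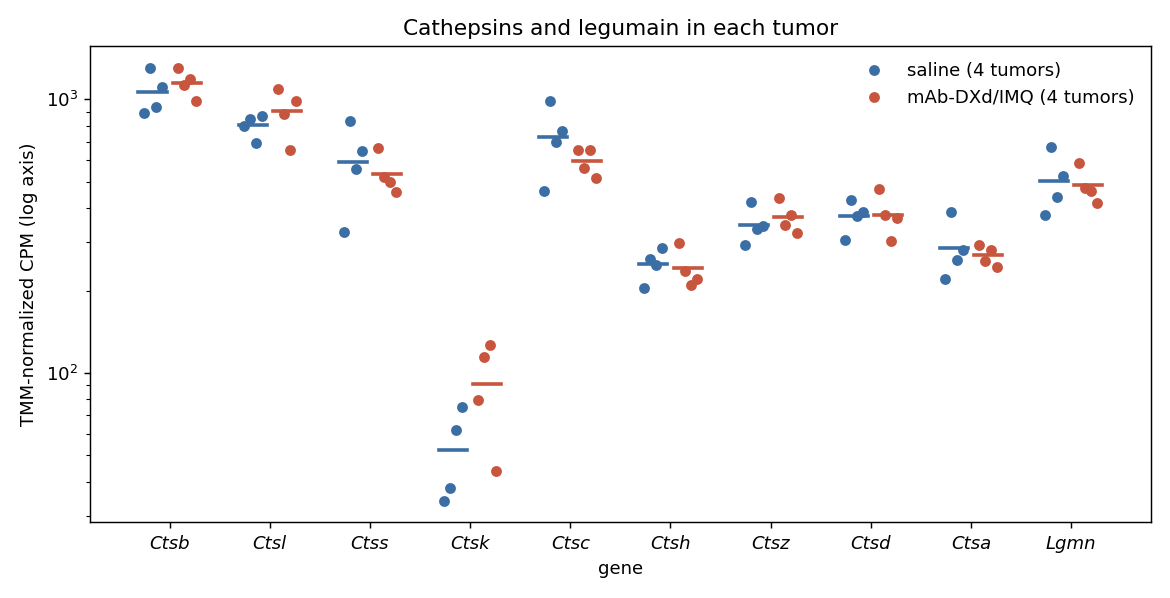
TMM-normalized CPM (log axis) of each protease in each of the 8 tumors, with points for tumors and bars for group means. The groups overlap for every gene, and on this axis Ctsk has the widest gap between its group means.

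The broad lysosomal endopeptidases come first. Cathepsin B (ENSMUSG00000021939, chr14:63122462-63145923, plus strand in GRCm38), which acts as an endopeptidase and as a carboxypeptidase, measured 895, 1307, 937 and 1112 CPM in saline tumors 1 to 4 and 1306, 1129, 1185 and 990.4 CPM in mAb-DXd/IMQ tumors 1 to 4. Saline tumor 2 and mAb-DXd/IMQ tumor 1 were highest and nearly level, saline tumors 1 and 3 were lowest, and the groups overlapped. The difference was small against this spread (log2 fold change 0.12 with SE 0.16, edgeR FDR 0.736), with an interval of -0.23 to 0.46. Fits that left out 1 tumor gave 0.041 (without saline tumor 1) to 0.23 (without saline tumor 2) for Ctsb.

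Cathepsin L (ENSMUSG00000021477, chr13:64359337-64370890, minus strand), an endopeptidase of lysosomal protein turnover, measured 801, 848, 693 and 873 CPM in saline tumors 1 to 4 and 1091, 886, 652 and 989 CPM in mAb-DXd/IMQ tumors 1 to 4. The treated tumors held both the highest value, in tumor 1, and the lowest, in tumor 3, so the saline tumors lay inside their range. Means were 804 and 905 CPM for saline and treated tumors, with SDs of 79.6 and 188 CPM (n = 4 each). The difference stayed short of the thresholds (log2 fold change 0.17 with SE 0.17, edgeR FDR 0.625), with an interval of -0.20 to 0.54. Fits that left out 1 tumor gave 0.065 (without mAb-DXd/IMQ tumor 1) to 0.30 (without mAb-DXd/IMQ tumor 3) for Ctsl.

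Cathepsin S (ENSMUSG00000038642, chr3:95526786-95556403, plus strand) trims the invariant chain from MHC class II in antigen-presenting cells and stays active at neutral pH. It measured 329, 831, 555 and 647 CPM in saline tumors 1 to 4 and 663, 520.4, 498 and 457 CPM in mAb-DXd/IMQ tumors 1 to 4. The saline tumors spanned a 2.53-fold range, from tumor 1, the lowest of all, to tumor 2, the highest, and all treated tumors lay inside it. The treated tumors spanned 1.45-fold. The group difference was smaller than the spread among saline tumors (log2 fold change -0.14 with SE 0.24, edgeR FDR 0.798), with an interval of -0.67 to 0.39. The Ctss log2 fold change was 0.065 without saline tumor 2.

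Cathepsin K (ENSMUSG00000028111, chr3:95499256-95509362, plus strand) degrades collagen and is the main protease of osteoclasts, and it is also made by activated fibroblasts and some macrophages. It measured 34.1, 37.8, 62.1 and 74.8 CPM in saline tumors 1 to 4 and 79.5, 115, 126 and 43.8 CPM in mAb-DXd/IMQ tumors 1 to 4. Treated tumors 1, 2 and 3 were above every saline tumor, but treated tumor 4 was below saline tumors 3 and 4, so the groups overlapped. Means were 52.2 and 91.1 CPM for saline and treated tumors, with SDs of 19.5 and 37.3 CPM (n = 4 each), a ratio of 1.74. This was the largest difference among the 10 proteases (log2 fold change 0.80 with SE 0.33, edgeR FDR 0.219, unadjusted p = 0.0323 in edgeR's test over all genes), and it failed the correction. Its interval, 0.081 to 1.52, is the only one of the 10 that leaves out 0, and like the unadjusted p it takes no account of the other genes tested. Higher values in 3 of 4 treated tumors than in any saline tumor stood beside a 2.19-fold range among saline tumors and a 2.89-fold range among treated tumors. Leaving out each tumor in turn, the Ctsk log2 fold change ran from 0.60 without mAb-DXd/IMQ tumor 3 (edgeR FDR 0.386) to 1.04 without mAb-DXd/IMQ tumor 4 (0.138), and over all alternatives the FDR ran from 0.0991 to 0.437.

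**Figure D2:**
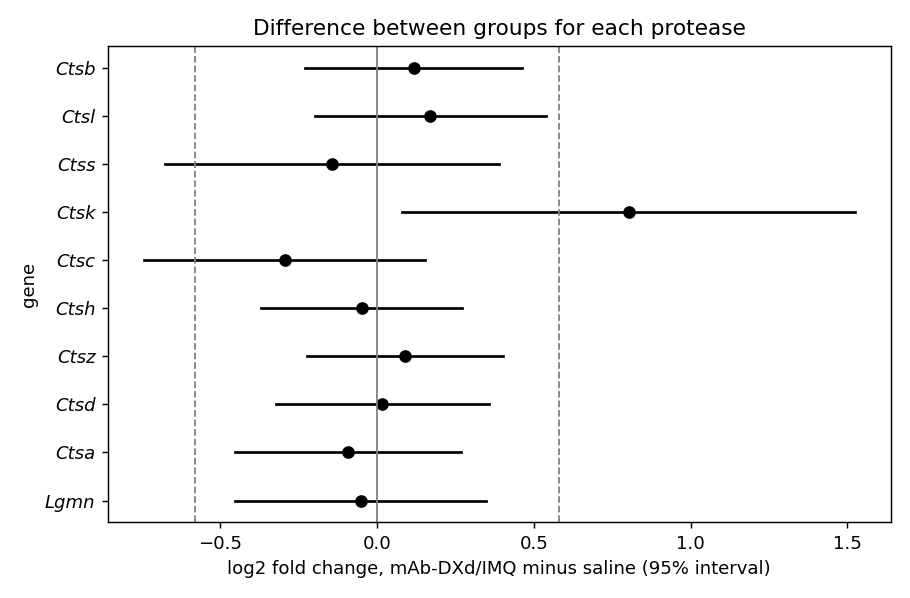
Log2 fold change of each protease (mAb-DXd/IMQ minus saline) with its 95% interval, and dashed lines at 0.58 in each direction. The interval for Ctsk runs from 0.081 to 1.52, and the other 9 intervals include 0.

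The exopeptidases trim peptides from their ends. Cathepsin C (ENSMUSG00000030560, chr7:88278085-88310888, plus strand), the dipeptidyl peptidase that activates the granule serine proteases of neutrophils, mast cells and cytotoxic lymphocytes, measured 463, 988, 701 and 766 CPM in saline tumors 1 to 4 and 651, 561, 653 and 514 CPM in mAb-DXd/IMQ tumors 1 to 4. Saline tumors 2, 3 and 4 were above all treated tumors, and saline tumor 1 was below all of them. It had the lowest fold change of the 10 (log2 fold change -0.29 with SE 0.20, edgeR FDR 0.469), with an interval of -0.74 to 0.15. Leaving out each tumor in turn moved it between -0.46 and -0.12 without a change of sign.

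Cathepsin H (ENSMUSG00000032359, chr9:90054152-90076089, plus strand), mainly an aminopeptidase, measured 204, 260.4, 249 and 285 CPM in saline tumors 1 to 4 and 299.7, 235, 209.7 and 221 CPM in mAb-DXd/IMQ tumors 1 to 4. Saline tumor 1 was lowest and mAb-DXd/IMQ tumor 1 highest, and the difference of the groups lay near 0 (log2 fold change -0.048 with SE 0.15, edgeR FDR 0.897; interval -0.37 to 0.27). The Ctsh log2 fold change turned to 0.028 without saline tumor 4 and to 0.013 without mAb-DXd/IMQ tumor 3. Cathepsin Z (ENSMUSG00000016256, chr2:174427493-174439039, minus strand), a carboxypeptidase, measured 292, 423, 335 and 344 CPM in saline tumors 1 to 4 and 435, 346, 378 and 325 CPM in mAb-DXd/IMQ tumors 1 to 4. The same pair of tumors, saline 1 and mAb-DXd/IMQ 1, stood at the ends of its range (log2 fold change 0.090 with SE 0.14, edgeR FDR 0.784; interval -0.22 to 0.40). The Ctsz log2 fold change turned to -0.030 with a correction for gene length, and to -0.028 with that and a block for the replicate number. It was 0.0020 without mAb-DXd/IMQ tumor 1 and 0.19 without saline tumor 2.

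Cathepsin D (ENSMUSG00000007891, chr7:142375911-142388038, minus strand), the main aspartic endopeptidase of lysosomes, measured 307, 429, 376 and 387 CPM in saline tumors 1 to 4 and 469, 377, 303 and 367 CPM in mAb-DXd/IMQ tumors 1 to 4. Saline tumor 1 and mAb-DXd/IMQ tumor 3 were about equally low, and mAb-DXd/IMQ tumor 1 was highest. Its fold change was the closest to 0 of the 10 (log2 fold change 0.016 with SE 0.15, edgeR FDR 0.971), with an interval of -0.32 to 0.36. The Ctsd log2 fold change was below 0 without saline tumor 1 (-0.071) or mAb-DXd/IMQ tumor 1 (-0.11), with the length correction (-0.083), and with that and the replicate block (-0.094).

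Cathepsin A (ENSMUSG00000017760, chr2:164832873-164841032, plus strand), a serine carboxypeptidase that also holds beta-galactosidase and neuraminidase in a protective complex, measured 221, 387, 258 and 280.3 CPM in saline tumors 1 to 4 and 294, 257, 281 and 245 CPM in mAb-DXd/IMQ tumors 1 to 4. Saline tumor 2 was well above the other 7 tumors and saline tumor 1 was lowest, while treated tumors lay close together (log2 fold change -0.091 with SE 0.16, edgeR FDR 0.812; interval -0.45 to 0.27). Without saline tumor 2 the Ctsa log2 fold change was 0.086. Legumain, from Lgmn (ENSMUSG00000021190, chr12:102394084-102439813, minus strand), the asparaginyl endopeptidase that also processes several cathepsins to their final chains, measured 379, 670.0, 439 and 524 CPM in saline tumors 1 to 4 and 586, 473, 463 and 419 CPM in mAb-DXd/IMQ tumors 1 to 4. Saline tumors 1 and 2 were again the ends of the range, with all treated tumors between them (log2 fold change -0.052 with SE 0.18, edgeR FDR 0.914; interval -0.45 to 0.35). The Lgmn log2 fold change was 0.12 without saline tumor 2 and 0.020 without mAb-DXd/IMQ tumor 4.

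Of all counts assigned to the 10 genes, Ctsb took the largest share, 21.3% in saline and 22.98% in treated tumors on average, with SDs of 1.05 and 1.44 points. Ctsl took 16.4% and 18.0%, with SDs of 2.89 and 3.26 points. The smallest share was that of Ctsk, 1.06% and 1.83%, with SDs of 0.385 and 0.804 points. These shares count reads, which a long transcript yields in larger number.

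Per length, cathepsin S led. Levels of different genes are compared here in RPKM, TMM-scaled CPM divided by the deposited gene length in kilobases, as mean ± SD of 4 saline and then 4 treated tumors. Ctss had 435 ± 154 and 394 ± 66.1 RPKM, the highest level of the 10 and the widest spread among saline tumors. Ctsz had 242 ± 37.6 and 257 ± 33.2 RPKM. Lgmn had 216 ± 54.4 and 209 ± 30.7 RPKM, below Ctsz in 8 of 8 tumors with these lengths, by less than the SD of Ctsz among saline tumors and by more than it among treated tumors. Ctsb had 176 ± 31.0 and 190.5 ± 21.7 RPKM and Ctsd 159 ± 21.6 and 161 ± 29.0 RPKM, within the SD of Ctsb among saline tumors but not among treated tumors. Ctsl had 124 ± 12.3 and 139 ± 29.0 RPKM. Ctsc had 126 ± 37.2 and 102 ± 11.9 RPKM, level with Ctsl in saline tumors. Ctsa, Ctsh and Ctsk were lowest. Ctsa had 60.8 ± 15.1 and 57.1 ± 4.75 RPKM and Ctsh 55.4 ± 7.56 and 53.6 ± 8.96 RPKM, within the SD of Ctsa. Ctsk had 34.5 ± 12.9 and 60.3 ± 24.7 RPKM, below these among saline tumors and level with them among treated tumors.

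The deposited length of all 10 genes equals the summed length of every annotated exon, which overstates the transcript of genes with rarely used exons. With the length of the principal transcript instead, an alternative chosen after seeing the data, Ctsc had a length of 2493 bases in place of 5808 and Ctsh one of 1617 in place of 4499. Ctsc then moved from place 7 to place 2 of the 10, at 266 RPKM over the 8 tumors in place of 114, and Ctsh measured 152 in place of 54.5. Ctss stayed first and Ctsk last under both lengths. Fold changes between groups do not depend on this length, except in the fits with the length correction, which use the deposited length.

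**Figure D3:**
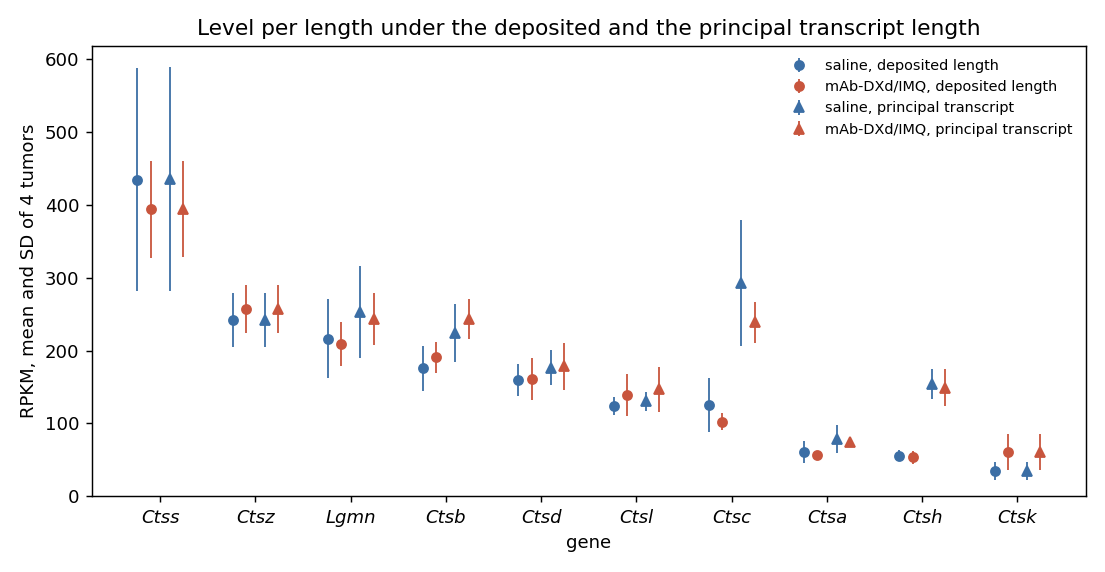
RPKM of each protease (mean and SD of 4 tumors a group) with the deposited gene length (circles) and with the principal transcript length (triangles). Ctss is highest under both lengths, and Ctsc and Ctsh are the genes that shift most.

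Summed over the 10 proteases, the widest contrast lay inside the saline group. Ctsa, Ctsb, Ctsc, Ctss, Ctsz and Lgmn had a wider fold range among saline tumors, and Ctsd, Ctsh, Ctsk and Ctsl a wider range among treated tumors, where Ctsk had the widest of all. Saline tumor 1 had the lowest level of all 8 tumors for 8 of the 10 proteases, all but Ctsd and Ctsl, and saline tumor 2 had the highest for 5 of them. mAb-DXd/IMQ tumor 1 was highest for 4. The summed CPM of the 10 was 3925, 6181, 4605 and 5293 CPM in saline tumors 1 to 4 and 5875, 4899, 4749 and 4571 CPM in mAb-DXd/IMQ tumors 1 to 4. Saline tumors 1 and 2 were thus the lowest and the highest of the 8, and the treated tumors lay between them.

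Macrophage markers had the same ends. The 13 genes of that list summed to 1377, 6656, 3067 and 3783 CPM in saline tumors 1 to 4 and 3793, 2789, 3476 and 2626 CPM in mAb-DXd/IMQ tumors 1 to 4, again lowest in saline tumor 1 and highest in saline tumor 2. Lyz2, which encodes lysozyme, was the most abundant of the list per length and measured 305, 3383, 1199.8 and 1581 CPM in saline tumors 1 to 4 and 1893, 1221, 1829 and 1344 CPM in mAb-DXd/IMQ tumors 1 to 4. The SD of log2 CPM was larger among saline than among treated tumors for 13 of 13 macrophage markers and for 6 of 10 proteases, against 36.0% of all tested genes. None of the 13 markers passed both thresholds in edgeR's test, 3 had an unadjusted p under 0.05, DESeq2 passed 2 and limma-voom 0. All 13 had a log2 fold change below 0, with a median of -0.36, but the Lyz2 log2 fold change, -0.041, had no stable sign. It was 0.38 with limma-voom, 0.34 with the replicate block, 0.22 with block and length correction and 0.0080 with upper-quartile scaling. It was 0.61 without saline tumor 2, 0.061 without mAb-DXd/IMQ tumor 2 and 0.033 without mAb-DXd/IMQ tumor 4. The part of macrophage content in the levels of the proteases was not tested.

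**Figure D4:**
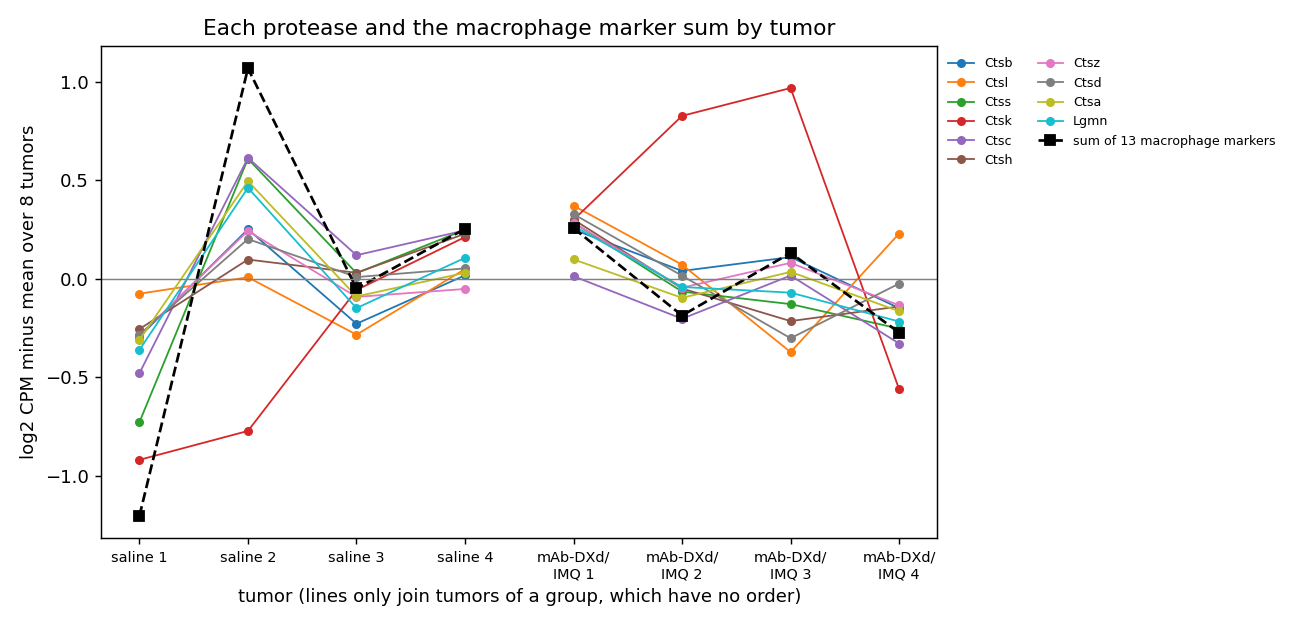
Log2 CPM of each protease minus its mean over the 8 tumors, with the summed macrophage markers treated alike (black squares). Most proteases and the marker sum are low in saline tumor 1 and high in saline tumor 2, whereas Ctsk is low in both and Ctsl varies little among saline tumors.

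How the proteases varied together was described by Pearson's r of log2 CPM over the 8 tumors, after each group's own mean was subtracted, with no test. Ctsa, Ctsb, Ctsc, Ctss, Ctsz and Lgmn formed a group that was high and low in the same tumors. In it Ctsb and Lgmn had r = 0.969, Ctsc and Ctss 0.952, and the least alike pair, Ctsb and Ctss, 0.872. Ctsd and Ctsh, an endopeptidase and an aminopeptidase, were most like each other (r = 0.900). Ctsl was closest to Ctsd (0.716) and had r = 0.006 with Ctsc. Ctsk followed none of the others, with r between -0.490 with Ctsl and 0.337 with Ctsc. These values rest on 8 tumors, and saline tumor 1 and saline tumor 2 lie at the ends of most of them.

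The 3 genes outside the family that varied most like each protease by the same measure are named as a description, picked from 18511 for their likeness. For Ctss they were Aif1 (0.999), Gatm (0.996) and Ly86 (0.996), and for Ctsc Csf1r (0.997), Sla (0.997) and Arl11 (0.996). Aif1 and Csf1r belong to the macrophage markers above. For Ctsa they were Mgat4a (0.996), Gm2a (0.990) and Gas6 (0.987), for Ctsb Strip2 (0.981), Gm19680 (0.972) and Stag1 (0.972), and for Lgmn Gm19680 (0.995), Hmgb1-ps3 (0.983) and Trip4 (0.983), so Ctsb and Lgmn shared Gm19680. For Ctsz they were Zfp148 (0.990), Mgat1 (0.989) and Rab8b (0.987). For Ctsd they were Dbt (0.994), Rnf130 (0.990) and Nxt2 (0.984), and for Ctsh Smim8 (0.988), Gtf2e2 (0.981) and Bin3 (0.981). No marker of the lists used here was among them. For Ctsk they were Clec4b1 (0.993), Chic1 (0.981) and Pde10a (0.980), and for Ctsl Zfand2b (0.992), Zfp712 (0.981) and Tnfrsf9 (0.980).

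Cathepsin K followed another order of tumors. Of the 5 osteoclast markers, Calcr was at 0 in 6 of 8 tumors and Oscar was too low to test, and the list summed to 55.3, 56.6, 48.8 and 52.4 CPM in saline tumors 1 to 4 and 80.4, 93.8, 143 and 60.0 CPM in mAb-DXd/IMQ tumors 1 to 4. Acp5, the tartrate-resistant acid phosphatase, was its most abundant gene and measured 44.3, 49.6, 41.2 and 46.1 CPM in saline tumors 1 to 4 and 71.9, 82.5, 126 and 53.4 CPM in mAb-DXd/IMQ tumors 1 to 4. All treated tumors were above all saline tumors, yet the difference failed the correction (log2 fold change 0.88 with SE 0.22, edgeR FDR 0.0668). Dcstamp, a fusion protein of osteoclasts and macrophage giant cells, had the lowest p of the list (log2 fold change 1.61 with SE 0.36, edgeR FDR 0.0528), and 0 of the 3 tested markers passed both thresholds in edgeR's test. At an unadjusted p under 0.05 there were 2, and DESeq2 passed 2, Acp5 and Dcstamp, and limma-voom 0. The Dcstamp log2 fold change also passed in edgeR's test with upper-quartile scaling (FDR 0.0483), no filter (0.0398) or the filter of at least 1 CPM (0.0451), with FDRs from 8.73e-04 to 0.210 over all alternatives. The Acp5 log2 fold change passed with no filter (0.0282), with FDRs from 0.00471 to 0.225.

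Fibroblast markers were also set beside Ctsk. The 9 of them summed to 3125, 4098, 7209.6 and 7608 CPM in saline tumors 1 to 4 and 6125, 4673, 8152 and 3153 CPM in mAb-DXd/IMQ tumors 1 to 4, with Col1a1, a chain of type I collagen, most abundant and a log2 fold change of -0.058. The log2 fold change was above 0 for 5 of the 9 and below 0 for 4, with a median of 0.13. The highest was that of Fap, fibroblast activation protein, named after its value was seen, which was higher in 4 of 4 treated tumors than in any saline tumor and failed the correction (log2 fold change 0.90 with SE 0.25, edgeR FDR 0.0903). Treated tumor 4, the low tumor for Ctsk, was also the lowest treated tumor in this sum, and saline tumors 1 and 2 were the lowest saline tumors in both. Pdgfra, a growth factor receptor of fibroblasts, had the lowest p of the list (log2 fold change -0.48 with SE 0.12, edgeR FDR 0.0679). None of the 9 passed both thresholds in edgeR's test, 2 had an unadjusted p under 0.05, and DESeq2 passed 1 and limma-voom 0. The part of osteoclast-like cells or fibroblasts in the level of Ctsk was not tested.

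Other lysosomal genes were measured around the 10 proteases. Over 7 further lists, 89 of 99 genes were tested, 1 passed as higher and 1 as lower in mAb-DXd/IMQ tumors. This is 2.25% of them, beside 1.06% of all tested genes. The share rests on Ctsg and Ids alone and is only a description, since Ctsg entered the test only through its treated values. The median log2 fold change of the 89 genes was -0.081, beside 0.022. Of 14 other cathepsins 5 were tested. The 9 placental cathepsins of chromosome 13, which lie in the cluster beside Ctsl, held 6 counts over all 8 tumors. Cathepsin G, a serine protease of neutrophil and mast cell granules, was very low in all tumors. It had 0.162, 0, 0.143 and 0.0439 CPM in saline tumors 1 to 4 and 0.969, 0.985, 1.22 and 1.80 CPM in mAb-DXd/IMQ tumors 1 to 4. It was higher in 4 of 4 treated tumors than in any saline tumor (log2 fold change 3.79 with SE 0.68, edgeR FDR 0.0290). Ctsg passed the filter on low counts only through its treated values, so its fold change and FDR are given as a description. With the filter of at least 1 CPM in 4 tumors it was not tested. The call was lost when any of saline tumors 3 and 4 or mAb-DXd/IMQ tumors 2, 3 and 4 was left out, with an FDR between 0.0345 and 0.119 over the 8 fits that leave out a tumor, and with the replicate block. Over all alternatives the FDR of the Ctsg log2 fold change ran from 5.30e-07 to 0.119. Ctso and Ctsw, the cathepsin of natural killer and cytotoxic T cells, were the most abundant of that list per length, with log2 fold changes of -0.17 and -0.27.

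The inhibitors of cathepsins had 0 of 12 tested genes past both thresholds in edgeR's test, with 2 at an unadjusted p under 0.05, and DESeq2 passed 1 and limma-voom 0. Cst3, the secreted cystatin C that inhibits cathepsins B, L and S, was the most abundant per length and measured 342, 741, 590.4 and 644 CPM in saline tumors 1 to 4 and 634, 531, 423 and 465 CPM in mAb-DXd/IMQ tumors 1 to 4. Like Ctsa, Ctsb, Ctsc, Ctss and Lgmn it was lowest in saline tumor 1 and highest in saline tumor 2 (log2 fold change -0.18 with SE 0.22, edgeR FDR 0.715). The Cst3 log2 fold change was -0.36 without saline tumor 1 and -0.036 without saline tumor 2. Cstb, which inhibits cathepsins inside cells, had a log2 fold change of -0.32 (edgeR FDR 0.205), and Stfa2l1, a stefin and the lowest in p, -2.06 (edgeR FDR 0.0824). The Stfa2l1 log2 fold change passed both thresholds with DESeq2, with no filter (FDR 0.0466) and without saline tumor 2 (0.0431), and was -1.31 without saline tumor 1 (0.140), with FDRs from 0.00382 to 0.193 over all alternatives.

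Sorting genes deliver the proteases to lysosomes, and of 10 such genes and partners 0 passed by edgeR, DESeq2 or limma-voom, with 1 at an unadjusted p under 0.05. Igf2r, the mannose 6-phosphate receptor that carries cathepsins from the Golgi, had the lowest p (log2 fold change 0.35 with SE 0.14, edgeR FDR 0.213). Cd74, the invariant chain that cathepsin S trims, and Psap, the saposin precursor that cathepsin D cuts, were the most abundant per length, with log2 fold changes of -0.42 and -0.16. Of 14 membrane and transport genes 0 passed by edgeR, DESeq2 or limma-voom, with 2 at an unadjusted p under 0.05. Cd63, a tetraspanin of lysosomes and secreted vesicles, was higher in 4 of 4 treated tumors than in any saline tumor and failed the correction (log2 fold change 0.47 with SE 0.14, edgeR FDR 0.107), and the most abundant per length, Laptm4a and Lamp1, had log2 fold changes of 0.061 and -0.15.

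Among 28 other lysosomal hydrolases 1 passed. Ids, the iduronate sulfatase of heparan and dermatan sulfate breakdown, fell, with 48.7, 62.1, 56.4 and 58.8 CPM in saline tumors 1 to 4 and 40.8, 38.7, 32.2 and 30.9 CPM in mAb-DXd/IMQ tumors 1 to 4, lower in 4 of 4 treated tumors than in any saline tumor (log2 fold change -0.66 with SE 0.12, edgeR FDR 0.0334). The call was lost when any of saline tumors 2, 3 and 4 or mAb-DXd/IMQ tumors 2, 3 and 4 was left out, with an FDR from 0.0368 to 0.137 over the 8 such fits. It was also lost with the length correction (Ids log2 fold change -0.66, FDR 0.0521) and with the replicate block, and over all alternatives the FDR ran from 3.84e-04 to 0.137. Asah1, the acid ceramidase, and Scpep1, a carboxypeptidase related to cathepsin A, were the most abundant per length, with log2 fold changes of -0.24 and -0.18.

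The vacuolar ATPase makes the acid that cathepsins need, and 0 of its 16 genes passed by edgeR, DESeq2 or limma-voom, with 1 at an unadjusted p under 0.05. Atp6v1a, its catalytic subunit, had the lowest p (log2 fold change -0.40 with SE 0.14, edgeR FDR 0.154), and the most abundant per length, Atp6v1g1 and Atp6v1f, had log2 fold changes of -0.030 and 0.094, the former above 0 under upper-quartile scaling (0.012). Of Tfeb, Tfe3, Mitf and Tfec, the transcription factors that drive lysosomal genes, 0 of 4 passed by edgeR, DESeq2 or limma-voom, with 2 at an unadjusted p under 0.05. All 4 had log2 fold changes below 0, with a median of -0.39. The lowest of these log2 fold changes was -0.67. Tfe3 and Tfeb, the most abundant per length, were lower in 4 of 4 treated tumors than in any saline tumor. Their log2 fold changes were -0.37 (edgeR FDR 0.117) and -0.33 (edgeR FDR 0.300). Complete separation of treated from saline tumors was seen for 3 factors in this list, beside 13.1% of all tested genes.

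**Figure D5:**
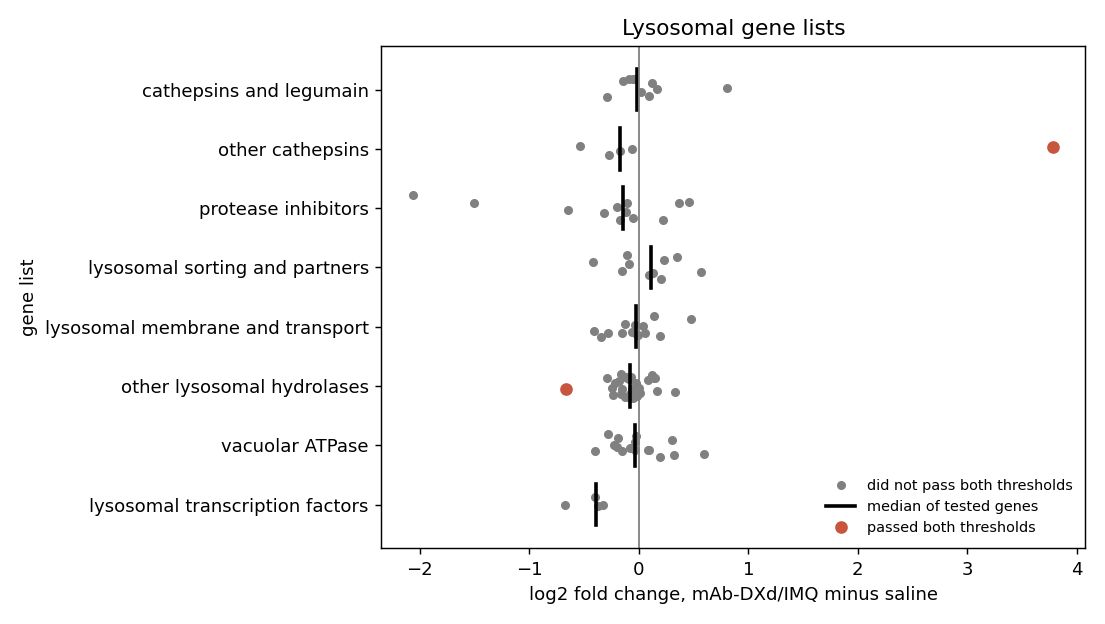
Log2 fold change (mAb-DXd/IMQ minus saline) of every tested gene in the 10 proteases and 7 lysosomal lists, with a bar at each median. Only Ctsg, at 3.79, and Ids, at -0.66, passed both thresholds, and Ctsg passed the filter on low counts only through its treated values. The median of the 10 proteases lies at -0.016.

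Promoters of the proteases were searched for the E-box CACGTG, the core of the element that Tfeb and Tfe3 are known to bind at lysosomal genes, and for its longer form TCACGTGA. Both read the same on either strand, and the longer contains the shorter. RefSeq promoter windows of GRCm38.p6, 250 bases before to 50 after a start, were matched for 8 of the 10 genes (10 windows) and not for Ctsb and Ctsh. CACGTG was in 4 of 10 windows, of Ctsa, Ctsd, Lgmn and Ctsl, and in 7.15% of all 32851 windows. Ctsa and Lgmn have 2 windows each, and the other window of each, which for Ctsa is the one at the annotated start of the gene (chr2:164832622-164832921, plus strand), held none. The windows with CACGTG of Lgmn (chr12:102439043-102439342, minus strand) and Ctsl (chr13:64370471-64370770, minus strand) lie inside the gene and do not reach its annotated start. TCACGTGA was in 2 of 10, of Ctsa and Ctsd, and in 0.974% of all. The windows of Ctsa (chr2:164833523-164833822, plus strand) and Ctsd (chr7:142387778-142388077, minus strand) hold the longer form and are shown for it. The window of Ctsk (chr3:95498960-95499259, plus strand), the gene with the largest difference, is shown beside them. Each is written 5′ to 3′ along its gene with CACGTG in capitals.
Ctsa: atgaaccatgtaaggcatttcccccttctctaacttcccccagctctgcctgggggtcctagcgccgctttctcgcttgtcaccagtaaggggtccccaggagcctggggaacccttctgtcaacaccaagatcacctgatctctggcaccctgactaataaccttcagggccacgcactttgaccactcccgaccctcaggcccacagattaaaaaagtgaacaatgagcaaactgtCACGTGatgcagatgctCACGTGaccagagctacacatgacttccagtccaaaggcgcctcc
Ctsd: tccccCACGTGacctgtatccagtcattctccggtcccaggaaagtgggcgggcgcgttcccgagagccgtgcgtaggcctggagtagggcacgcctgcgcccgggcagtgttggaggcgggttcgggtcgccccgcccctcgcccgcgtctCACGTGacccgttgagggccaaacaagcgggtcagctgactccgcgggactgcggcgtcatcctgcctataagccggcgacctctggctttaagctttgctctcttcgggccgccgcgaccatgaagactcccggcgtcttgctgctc
Ctsk: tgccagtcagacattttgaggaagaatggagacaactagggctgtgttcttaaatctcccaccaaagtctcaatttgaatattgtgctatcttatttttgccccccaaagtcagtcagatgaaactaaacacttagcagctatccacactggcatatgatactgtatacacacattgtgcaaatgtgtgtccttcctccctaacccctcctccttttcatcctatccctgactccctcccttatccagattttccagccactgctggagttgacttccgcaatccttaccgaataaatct
In Ctsa the E-boxes began 12 bases before and 6 bases after the transcript start on which this window is placed, and in Ctsd 245 and 98 bases before its start. No CACGTG was in the window of Ctsk, nor in those of Ctss, Ctsc and Ctsz. A match is a description of these letters and does not show binding.

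Genes that overlap the proteases could share reads with them, since the strandedness of the counting is not given in the sources used here. Pltp, on the opposite strand from Ctsa, held counts equal to 11.2% of those of Ctsa. Nelfcd held 7.91% of those of Ctsz and Fdft1 5.17% of those of Ctsb. Other overlapping genes held under 1% of the counts of Ctsa, Ctsc, Ctsd, Ctsl and Ctss, and Ctsh, Ctsk and Lgmn overlapped no other gene.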

How the data were processed

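Libraries were prepared and sequenced by Novogene America from tumors taken at the end of the study. Per the files, the authors deposited a raw count for each gene in each tumor, with no normalization, and a gene length. The submitters' processing notes name HISAT, HISAT2, TopHat2 and mm39, without versions, yet 98.3% of gene coordinates matched GENCODE release M21 on GRCm38, which is the build used here. Samples were grouped by their labels.

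Counts were analysed in R 4.3.3 with edgeR 4.0.16 (TMM, filterByExpr with a minimum count of 10 and total of 15, quasi-likelihood F-test, no covariates), which is an older version than the study's. Standard errors were derived from the coefficient and its F statistic. Total counts ranged from 34591912 to 69582375, and 3 counts equal 0.0431 to 0.0867 CPM, a floor of counting error only. DESeq2 1.42.0 and limma 3.58.1 were alternatives. Figures used Python 3.11.15 and matplotlib 3.10.9.

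Other alternatives were RLE and upper-quartile scaling, total counts, no filter, at least 1 CPM in 4 tumors, FDR alone, a replicate block, a length spline with 5 degrees of freedom, each tumor left out, TPM, and principal transcript lengths, the last chosen after seeing the data.

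Each fit was tested on simulated data under several seeds. edgeR, limma-voom and the length correction kept unchanged genes among their calls within the bound set for every tool, and DESeq2 exceeded it under each seed. The bound was not altered, but the run was made to stop only for edgeR, so DESeq2 counts are not read at their nominal FDR.

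The 10 genes and all lists were chosen with earlier results of these data known. Named genes are the 10, each lysosomal list's genes past both thresholds, its 2 most abundant per length and its lowest p, each marker list's most abundant gene and, where given, lowest p, and, for each of the 10, the 3 genes most like it. All other genes named, which are further list members and genes that overlap a protease, fall outside this rule and were chosen after their values were seen. Replicates are separate mice, and no pair of libraries within a group was a duplicate.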

Additional observations from a re-analysis of the deposited data

Results flagged for a closer look

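In 5 of 148 groups of 4 tumors, the gap between the most distant tumor and its neighbour exceeded 0.829 of the group's range, where chance gives about 1 in 20. None was in the 10 proteases. Tfeb was high in saline tumor 2 (gap 0.959 of the range), with 19.1 CPM. Csf3r was low in mAb-DXd/IMQ tumor 1 (gap 0.891 of the range), against 21.8, 22.9 and 22.1 CPM in the other treated tumors. Dcstamp was low in mAb-DXd/IMQ tumor 4 (gap 0.859), with 1.35 CPM, and this tumor was also the lowest treated tumor for Ctsk. Epcam was low in saline tumor 2 (gap 0.908), with 193 CPM. Cidec, an adipocyte gene, was at 0 in saline tumor 2 (gap 0.865).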

How the results depend on the processing

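No protease passed both thresholds under any of the 19 alternatives. Of 190 fold changes of the 10 proteases under them, 178 kept their direction and 12, in 6 genes, changed sign while staying uncalled. The Ctsd log2 fold change was -0.083 with the length correction and -0.094 with that correction and the replicate block, and the Ctsz log2 fold change -0.030 and -0.028. Leaving out each tumor in turn gave -0.20 to 0.086 for Ctsa, -0.11 to 0.11 for Ctsd, -0.17 to 0.028 for Ctsh, -0.34 to 0.065 for Ctss, -0.17 to 0.12 for Lgmn, -0.29 to 0.0077 for Psap, -0.083 to 0.16 for Laptm4a, -0.18 to 0.068 for Atp6v1g1, -0.047 to 0.24 for Atp6v1f, -0.39 to 0.61 for Lyz2, -0.38 to 0.14 for Col1a1, -0.0020 to 0.57 for Cdh5, -0.0097 to 0.26 for Krt18, -0.15 to 0.065 for Erbb2 and -0.78 to 0.037 for Acta1. Of 812 fold changes of 43 other named genes, 728 kept direction and call, 30 changed sign, 37 lost a call and 17 gained one. Other changes of sign were Laptm4a (-0.050) and Atp6v1f (-0.032) with the length correction, the same genes (-0.075 and -0.066) and Lyz2 (0.22) with length correction and block, Atp6v1g1 (0.012), the Lyz2 log2 fold change (0.0080) and Erbb2 (0.026) with upper-quartile scaling, Erbb2 (0.0094) with total counts, Lyz2 (0.38) and Cidec (0.31) with limma-voom, and Lyz2 (0.34) with the block. The cause was not tested.

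The count of genes past both thresholds, 197, was far less stable. It was 358 without a filter (31459 genes tested), 787 with DESeq2, which called too many unchanged genes in simulated data, 122 with the length correction, and 10 to 203 when each tumor was left out. Upper-quartile scaling split it as 145 higher and 73 lower, against 101 and 96. Over all 18511 tested genes, longer genes tended to lower log2 fold changes (Spearman's rho -0.21), and rho was -0.034 with the length correction. The cause of this trend was not tested.

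The replicate block gave 14 genes, and 14 with the length correction. Tumors that bear the same number are from separate mice, and their deviations from the group mean correlated at -0.17, -0.055, 0.079 and -0.067 across genes, so the numbers were not taken as pairs.

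With principal transcript lengths, chosen after seeing the data, places per length became 2 for Ctsc, 3 for Ctsz, 4 for Lgmn, 5 for Ctsb, 6 for Ctsd, 7 for Ctsh, 8 for Ctsl and 9 for Ctsa, and TPM in place of RPKM moved none. With at least 1558 counts in every tumor, low depth limited none of the 10 proteases, whereas Ctsg, at no more than 1.80 CPM, rests on few counts.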

Other observations

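Markers of other cells were measured beside the proteases. Neutrophil markers summed to 228, 88.3, 93.6 and 128 CPM in saline tumors 1 to 4 and 36.2, 50.7, 53.4 and 71.7 CPM in mAb-DXd/IMQ tumors 1 to 4. The sum was lower in every treated tumor than in any saline tumor, and Csf3r, the receptor for granulocyte colony-stimulating factor, fell (log2 fold change -0.80 with SE 0.16, edgeR FDR 0.0402), a call lost without any tumor other than mAb-DXd/IMQ tumor 1 (FDR 0.0428 to 0.134 over the 8 fits that leave out a tumor). It was also lost with upper-quartile scaling (FDR 0.0501), total counts (0.0601) and the replicate block, with FDRs of the Csf3r log2 fold change from 5.34e-04 to 0.134 over all alternatives. Of 8 tested markers 6 had a log2 fold change below 0 and 2 above 0, up to 0.32, with a median of -0.78. Of the 8, 1 passed, 4 had an unadjusted p under 0.05, and DESeq2 passed 3 and limma-voom 1. Of all 18511 tested genes, 1.06% passed in edgeR's test, 18.9% had an unadjusted p under 0.05, the groups were apart for 13.1%, and DESeq2 passed 787 and limma-voom 174. The most abundant of the list was S100a9 (log2 fold change -1.81 with SE 0.43, edgeR FDR 0.0598), and it passed both thresholds with DESeq2, with no filter and without saline tumor 2 (FDR 0.0431; 0.0151 to 0.157 for the S100a9 log2 fold change over all alternatives). Without saline tumor 1, which had the highest sum, it was -1.18 (FDR 0.0625). Ly6g, a defining marker, was at 0 in 2 tumors.

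T cell markers summed to 65.9, 98.3, 94.4 and 84.5 CPM in saline tumors 1 to 4 and 51.3, 43.3, 26.4 and 38.2 CPM in mAb-DXd/IMQ tumors 1 to 4, with 2 of 7 past both thresholds, Cd4 (log2 fold change -1.91 with SE 0.25, edgeR FDR 0.0201) and Cd8a (log2 fold change -1.22 with SE 0.17, edgeR FDR 0.0201), which was the most abundant. The shares over all tested genes are those above. All 7 had a log2 fold change below 0, with a median of -1.08, 5 had no overlap of the groups, 7 had an unadjusted p under 0.05, and DESeq2 passed 6 and limma-voom 3. Both calls were lost with the replicate block and without saline tumor 3, saline tumor 4 or mAb-DXd/IMQ tumor 4, with FDRs for Cd4 from 0.00417 to 0.0846 over the 8 fits that leave out a tumor, and for Cd8a from 0.0133 to 0.0846. Dendritic cell markers summed to 1939.5, 2693, 2332 and 2308 CPM in saline tumors 1 to 4 and 2117, 1834, 964 and 1537 CPM in mAb-DXd/IMQ tumors 1 to 4, mostly from H2-Eb1, a class II chain (log2 fold change -0.59 with SE 0.22, edgeR FDR 0.186). None of these 9 passed by edgeR, DESeq2 or limma-voom, and 5 had an unadjusted p under 0.05. All 9 had a log2 fold change below 0, with a median of -0.72, and the groups overlapped for each of them. The part of these cells in the levels of the proteases was not tested.

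No gene of the other marker lists passed by edgeR. Of 4 B cell markers 2 were tested, and Cd79b was the most abundant and the lowest in p (log2 fold change -1.53 with SE 0.49, edgeR FDR 0.128; 1 at an unadjusted p under 0.05, 1 by DESeq2, 0 by limma-voom). Endothelial markers, 5 of 5 above 0 with a median log2 fold change of 0.26, included Cdh5 (0.26) and Kdr (0.56). Of the hormone receptors and Erbb2, Esr1 had 18.6, 17.9, 19.4 and 20.6 CPM in saline tumors 1 to 4 and 16.6, 17.2, 13.6 and 15.3 CPM in mAb-DXd/IMQ tumors 1 to 4 (log2 fold change -0.29 with SE 0.13, edgeR FDR 0.258; the only 1 of the 3 at an unadjusted p under 0.05, 0 by DESeq2 or limma-voom), and Erbb2, the most abundant, had a log2 fold change of -0.019 that was above 0 with upper-quartile scaling and with total counts. Endothelial, skeletal muscle, adipocyte and epidermis markers had 0 at an unadjusted p under 0.05 and 0 by DESeq2 or limma-voom. Their fold changes were -0.40 for Acta1 and -0.88 for Ckm of muscle, -0.72 for Adipoq and -0.63 for Cidec of fat, and 1.04 for Krt14 of epidermis, on the log2 scale. The log2 fold change was above 0 for 1 of 5 tested muscle markers, 0 of 3 fat markers and 4 of 4 epidermis markers. The median of the epidermis markers was 1.51. Single tumors moved several of these fold changes. Fits that left out 1 tumor gave -1.44 to -0.47 for Ckm, -1.13 to -0.19 for Adipoq and -1.04 to -0.30 for Cidec. Adipoq was -0.060 with limma-voom.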
